A study of Bos taurus with 4 samples.

Results

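Transcripts of the molecular chaperones were examined in spermatozoa of Murrah buffalo bulls of high and low fertility. The genes were taken by symbol from the array: heat shock proteins of the HSPA to HSPF, HSP90 and HSPH1 series, J proteins (DNAJA, DNAJB and DNAJC) and the cytosolic chaperonin (TCP1 and CCT2 to CCT8, with related symbols). This gave 79 of the 32429 gene names on the array, read by 187 of 51282 probes. Sperm RNA of 2 high-fertile and 2 low-fertile pools was hybridised, and each pool held equal amounts of RNA from 2 bulls. The bulls were breeding animals graded by their conception rate in field inseminations, and the spermatozoa had been passed through a Percoll gradient. No treatment was given, and ages are not stated in the sources used here. Because RNA was taken from whole sperm pools, fewer cells of a type and less RNA per cell cannot be told apart. The array carries cattle (Bos taurus) sequences, so buffalo RNA was read through cattle probes, and a base mismatch in a probe lowers its signal.

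Chaperones bind unfolded or partly folded proteins. HSP70 proteins cycle on and off their clients with ATP, J proteins bring clients to HSP70 and start its ATPase, and nucleotide exchange factors such as the HSP110 proteins reset it. HSP90 proteins take over clients that are nearly folded, among them kinases and hormone receptors, while the small heat shock proteins hold unfolded proteins without ATP. The chaperonins are hollow rings that enclose a client: HSPD1 with its lid HSPE1 in mitochondria, and the TCP1 and CCT subunits in the cytosol, where actin and tubulin are the main clients. In the male germ line HSPA2 is known for its role in meiosis and in the sperm surface, and several members (HSPA1L, HSPA4L, HSPB9, DNAJB3, DNAJB7, DNAJB8, DNAJB13, DNAJC5B, DNAJC5G, CCT6B and CCT8L2) are known mainly from testis.

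The 4 arrays lay on 1 slide. Each fertility group occupied a row of its own there, so row and group cannot be told apart. The scanner software marked between 23228 and 25642 probes as well above background in 3 pools and 13033 in low-fertile pool 2, which stood apart. The standard deviation of its negative controls was 109, against 4.1 to 24.7 in the other pools. Its processed signal at the 75th percentile was 32.7, against 36.7 to 37.1. A probe called dim below lacks the mark, which in that pool need not mean less signal. The part of this spread in the missing marks was not tested. Of the chaperone probes, 86 and 88 reached that mark in the high-fertile pair, 87 in low-fertile pool 1 and 37 in its partner, pool 2. Of 16 sperm markers, 8 and 6 reached it in the high-fertile pair and 9 and 4 in the low-fertile pair, and their summed processed signal was 837 to 958 against 786 to 810. Without PRM2, which had signal in high-fertile pool 1 alone, the sums overlapped, at 778 and 822 against 796 and 776. Defining sperm transcripts such as LDHC, PGK2, AKAP4 and SMCP were well above background on 0 arrays, and PRM2 on 1, whereas PRM1, TNP1, ODF1 and ACR were on all 4. ODF1 and ACR read 2.72 to 3.06 in all pools, and PRM1, a protamine, was called higher in the low-fertile pair (0.67 ± 0.14 SE, adjusted p = 0.0231). Of 10 leukocyte markers 8 were well above background in 3 pools and 5 in low-fertile pool 2. Their summed signal, most of it from PTPRC and LYZ, was 20498 to 21455 in the high-fertile pair and 27913 to 28679 in the low-fertile pair. The 7 epithelial markers summed to 886 to 888 and 926 to 935, the 6 red cell markers to 310 to 467 and 384 to 407, and the 5 markers of testicular somatic cells to 748 to 952 and 844 to 865. Single markers called higher in the low-fertile pair were PTPRC (0.78 ± 0.15 SE, adjusted p = 0.016), HBB (1.24 ± 0.21 SE, adjusted p = 0.0118) and STAR (0.79 ± 0.16 SE, adjusted p = 0.0212), each with the pools apart. The part of these differences in the chaperone results was not tested.

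Of the 79 chaperone genes, 14 were downregulated and 1 was upregulated in the low-fertile pools. Each gene was read from its probe with the highest mean signal, in log2 units relative to the 75th percentile of its array, and a gene was tested when either group had that probe well above background in its 2 pools. This held for 39 genes. None of them qualified through the low-fertile pair without the high-fertile pair, and over the array 215 of 16549 tested genes did. Low-fertile pool 2 had the fewest marks, so a gene bright in the low-fertile pair alone could seldom enter. The counts of lower and higher calls below therefore come from a filter that was uneven in practice. Calls were made at an adjusted p under 0.05 in limma, with Benjamini-Hochberg adjustment over all 21033 tested probes. The share called lower was 35.9% of the tested chaperone genes and 16.3% of all tested genes, and the share called higher was 2.56% against 9.60%. The 39 genes did not all qualify in the same way. Among the 20 genes well above background on all 4 arrays, 4 fell (HSP90AA1, HSP90AB1, HSPE1 and CCT4) and 1 rose (DNAJA1), where the background was 9.32% lower and 13.2% higher. Another 14 qualified through the high-fertile pair and 1 low-fertile array, and 6 of them were called lower (HSPA4, HSPA8, CCT6A, TCP1, DNAJC6 and DNAJC8) against a background of 18.9%. The higher calls of such genes came to 1.70% over the array and to none here. In all 14 the dim array was low-fertile pool 2, and folds of such genes below use its measured value. The remaining 5 qualified through the high-fertile pair alone, with both low-fertile arrays dim, and 4 were called lower (CCT2, HSPD1, HSPB11 and DNAJB7), where 79.1% of all such genes were called. The filter favours a lower call in a gene that qualified only through the high-fertile pair, so its call is no more than a description. It does not fix the call, as DNAJC25 qualified in this way and did not pass (adjusted p = 0.066).

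The pools of the 2 groups did not overlap in 32 of the 39 genes, with the low-fertile pools below in 23 and above in 9. Over all tested genes the pools were apart with the low-fertile pair below in 34.3% and above in 35.0%. Without high-fertile pool 1, 10 of the 14 lower calls were kept, and CCT4 (adjusted p = 0.0703), TCP1 (adjusted p = 0.0671), HSP90AB1 (adjusted p = 0.176) and DNAJC8 (adjusted p = 0.096) lost theirs. Without low-fertile pool 2, 12 of the 14 lower calls and the 1 higher call were kept. The calls of HSP90AB1 (adjusted p = 0.0761) and DNAJC8 (adjusted p = 0.0664) were lost, and 13.2% of all tested genes were then called lower. With 2 pools a group, the smallest two-sided p that an exact permutation can reach is 0.333, so no gene was tested that way. Precision is limited by the number of arrays. Nothing beyond the pooling says how far the pools differ biologically, so the p-values measure the spread between these 4 arrays.

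**Figure D1:**
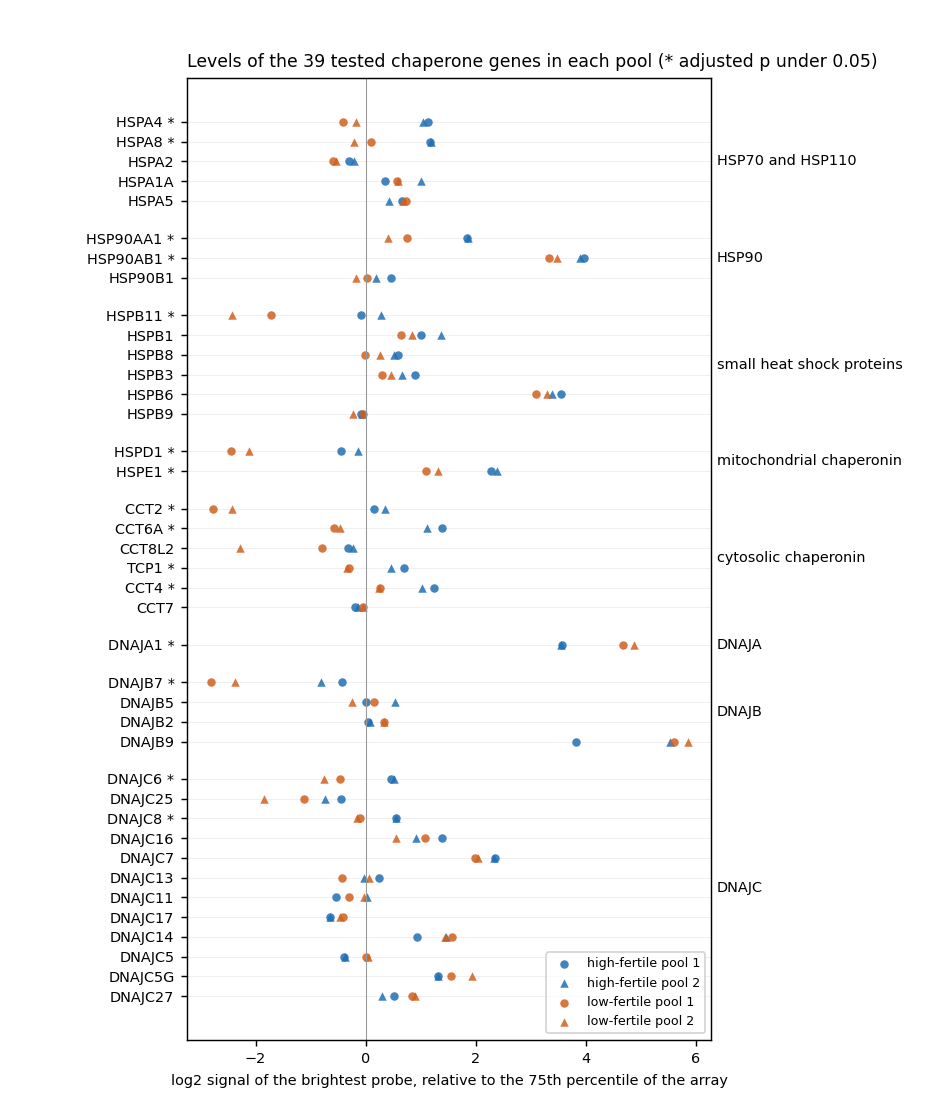
Log2 signal of the brightest probe of each of the 39 tested chaperone genes, relative to the 75th percentile of the array (horizontal axis), in high-fertile pools 1 and 2 and low-fertile pools 1 and 2, grouped by family. Asterisks mark the 15 genes with an adjusted p under 0.05; HSPD1, CCT2, HSPB11 and DNAJB7 show the low-fertile points far to the left, and DNAJA1 is the only starred gene with the low-fertile points to the right.

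In the HSP70 and HSP110 family, 5 of 14 genes were tested, and 2 of them, HSPA8 and HSPA4, were downregulated in the low-fertile pair. HSPA8 encodes the constitutive cytosolic HSP70, which also strips clathrin from vesicles. Its brightest probe read 1.17 and 1.19 in the high-fertile pair and 0.09 and -0.20 in the low-fertile pair, where it was well above background on 1 array. The pools were apart, and the signal was 2.36-fold lower (log2 fold change -1.24 ± 0.17 SE, adjusted p = 0.00613). HSPA4, an HSP110-type exchange factor for HSP70, read 1.13 and 1.04 against -0.41 and -0.17 and was 2.60-fold lower (log2 fold change -1.38 ± 0.16 SE, adjusted p = 0.00425), again with 1 of the low-fertile arrays well above background. Over the median of its probes HSPA4 was at -0.52 and not called (adjusted p = 0.0803). That median takes in its other probe, at base 4669, which was well above background on 0 arrays and was not tested. The endoplasmic reticulum member HSPA5 (BiP) and the stress-inducible HSPA1A did not pass the test. HSPA5 read 0.66 and 0.42 in the high-fertile pair and 0.73 and 0.69 in the low-fertile pair (adjusted p = 0.459). HSPA1A read 0.35 and 1.00 against 0.57 and 0.59 (adjusted p = 0.782), so its low-fertile values lay between those of the high-fertile pools. HSPA2 read -0.30 and -0.22 against -0.59 and -0.54, a log2 fold change of -0.30 ± 0.14 (SE) that did not pass (adjusted p = 0.164). HSPA1L, HSPA4L, HSPA9, HSPA14 and HSPH1 were not tested. HSPA9, the mitochondrial HSP70, read -0.89 and -0.57 against -2.77 and -1.91 on probes that were not well above background on both arrays of either group.

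HSPA8 was read by 6 tested probes, and they did not give 1 answer. Listed by the base of the transcript model at which they start, the 3 below lie at bases 407, 1281 and 1700 on the minus strand of chromosome 15 of the cattle assembly Btau_3.1, at chr15:32351101-32351160, chr15:32349792-32349851 and chr15:32348935-32348994. They are shown because nearly equal base composition went with different fold changes. G and C are in capitals.
HSPA8 base 407: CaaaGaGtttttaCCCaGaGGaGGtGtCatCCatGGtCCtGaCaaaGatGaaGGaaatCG
HSPA8 base 1281: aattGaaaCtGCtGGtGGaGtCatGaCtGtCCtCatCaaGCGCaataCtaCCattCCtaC
HSPA8 base 1700: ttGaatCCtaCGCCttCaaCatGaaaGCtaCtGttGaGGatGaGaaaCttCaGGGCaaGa

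The probe at base 407 has 27 G or C bases of 60 and read 0.62 and 0.81 in the high-fertile pair and 0.36 and 0.29 in the low-fertile pair, all well above background. Its log2 fold change of -0.40 ± 0.15 (SE) did not pass (adjusted p = 0.109). At base 542 the fold change was -0.62 ± 0.25 (SE; adjusted p = 0.122). The files locate only 20 bases of that probe on the genome, at chr15:32348135-32348154, beyond the probe at base 2168, so its place in the order depends on which position is used. The probe at base 1281 also has 27 G or C bases and is the brightest probe described above. At base 1700, with 26 G or C bases, the signal was 0.99 and 0.89 against -1.06 and -1.03, which is 3.95-fold lower as measured (adjusted p = 0.00221), with low-fertile pool 2 not well above background. The probe at base 1823 gave -1.05 ± 0.18 (SE; adjusted p = 0.0118) and shares at least 25 bases with a probe of a HSPA8-like locus (log2 fold change -1.07), so the 2 loci may share signal there. The probe at base 2168 has 22 G or C bases and begins GtGCaCatGGaaaaaCattGCaCtttaCaa. It read 0.24 and 0.45 in the high-fertile pair and was not well above background in the low-fertile pair (measured log2 fold change -3.17 ± 0.32 SE, adjusted p = 0.0032). For such probes the bound is taken against the level under which 99% of the probes without the mark lay, -1.07 in low-fertile pool 1 and 0.0044 in pool 2, a floor chosen after seeing the data. By it this probe was at least 1.84-fold lower.

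In the HSP90 family both cytosolic genes fell by their brightest probes, and these were probes near the end of the transcript. HSP90AA1, the stress-responsive form, read 1.84 and 1.86 in the high-fertile pair and 0.75 and 0.40 in the low-fertile pair at base 2758, a 2.42-fold decrease (log2 fold change -1.27 ± 0.17 SE, adjusted p = 0.00651). HSP90AB1, the constitutive form, read 3.97 and 3.90 against 3.32 and 3.47 at base 2406, a 1.45-fold decrease (-0.54 ± 0.15 SE, adjusted p = 0.0473). Both pairs of pools were apart and well above background on all 4 arrays. HSP90B1, the endoplasmic reticulum form GRP94, read 0.46 and 0.20 against 0.02 and -0.18 and did not pass (adjusted p = 0.133). The call of HSP90AB1 was close to the threshold and was lost when any 1 pool was left out.

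The HSP90AA1 probes nearer the start of the transcript did not pass the test. At bases 569 and 1698, HSP90AA1 had log2 fold changes of 0.31 ± 0.16 (SE; adjusted p = 0.204) and 0.45 ± 0.20 (SE; adjusted p = 0.161). At base 2945 the value was -1.97 ± 0.32 (SE; adjusted p = 0.0103), with 1 low-fertile array well above background. The 3 probes below have 27 G or C bases each and lie on the minus strand of chromosome 21 of Btau_3.1, at chr21:67028817-67028876, chr21:67026476-67026535 and chr21:67024849-67024908. The first and second gave values above 0 that did not pass, and the third, of which the first 30 bases are given, gave the lower call. G and C are in capitals.
HSP90AA1 base 569: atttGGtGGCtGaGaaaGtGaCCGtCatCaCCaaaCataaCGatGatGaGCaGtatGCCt
HSP90AA1 base 1698: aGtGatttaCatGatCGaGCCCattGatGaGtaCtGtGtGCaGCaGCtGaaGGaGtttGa
HSP90AA1 base 2758: ataCtttGtaaaGCttCCatCCCCtGtaGt

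HSP90AB1 had 4 tested probes as well, all well above background on all 4 arrays. At bases 528, 706 and 1524 they gave log2 fold changes of 0.52 ± 0.19, -0.30 ± 0.16 and 0.24 ± 0.15 (SE), none of which passed (adjusted p = 0.0959, 0.216 and 0.28). Only the last probe of the gene, at base 2406, was called.

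Both genes of the mitochondrial chaperonin were called lower in the low-fertile pair by their brightest probes. HSPE1 (HSP10), the lid of the ring, read 2.28 and 2.39 in the high-fertile pair and 1.1 and 1.32 in the low-fertile pair and was 2.19-fold lower (log2 fold change -1.13 ± 0.16 SE, adjusted p = 0.0068). Its second probe, at base 262, gave -1.14 ± 0.15 (SE; adjusted p = 0.00612). HSPD1 (HSP60), the ring itself, read -0.46 and -0.14 in the high-fertile pair and was not well above background in the low-fertile pair (measured log2 fold change -1.99 ± 0.20 SE, adjusted p = 0.00316), at least 1.18-fold lower. By the median over its probes HSPD1 turned to 0.51, and after G and C correction HSPE1 was at -0.27 (adjusted p = 0.282) and no longer called. The other 4 probes of HSPD1 were not tested.

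Of the 10 genes of the cytosolic chaperonin family, 6 were tested and 4 were downregulated: CCT2, CCT4, CCT6A and TCP1. CCT4 was the only one of these well above background on all 4 arrays. It read 1.25 and 1.02 in the high-fertile pair and 0.27 and 0.24 in the low-fertile pair and was 1.84-fold lower (log2 fold change -0.88 ± 0.15 SE, adjusted p = 0.013). All 3 of its probes were called lower, with values of -0.85, -1.26 and -0.88 at bases 1452, 1705 and 1888. The call at the brightest probe was lost without high-fertile pool 1, and after G and C correction its value was -0.029 (adjusted p = 0.905). CCT6A read 1.38 and 1.1 against -0.58 and -0.47 (3.40-fold lower, adjusted p = 0.00288), and its second tested probe was dim in both low-fertile pools (measured log2 fold change -2.52 ± 0.37 SE, adjusted p = 0.00763), at least 1.03-fold lower. CCT2 read 0.15 and 0.34 in the high-fertile pair and was dim in the low-fertile pair (measured log2 fold change -2.85 ± 0.18 SE, adjusted p = 0.00221), at least 1.72-fold lower.

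TCP1 encodes the alpha subunit of the ring. At its brightest probe, base 1760, it read 0.69 and 0.46 in the high-fertile pair and -0.31 and -0.34 in the low-fertile pair, a 1.87-fold decrease (log2 fold change -0.90 ± 0.16 SE, adjusted p = 0.0123) that was not called without high-fertile pool 1. The probes at bases 1583 and 1661 were also called lower (adjusted p = 0.0437 and 0.00458), both dim in the low-fertile pair. At base 1583 the high-fertile mean lay under the floor of the bound, so no fold is given. At base 1661 the signal was at least 1.05-fold lower. The probe at base 647 read -0.91 and -0.74 against -0.56 and -0.79 and did not differ beyond the spread of the pools (0.15 ± 0.16 SE, adjusted p = 0.536). CCT7 did not pass either. It read -0.19 and -0.14 against -0.05 and -0.04 (log2 fold change 0.12 ± 0.14 SE, adjusted p = 0.562), so not every subunit was read as lower. CCT8L2 read -0.33 and -0.24 against -0.79 and -2.29 and did not pass (adjusted p = 0.104). CCT3, CCT5, CCT6B and CCT8 were not tested. CCT8 read -0.49 and -0.72 against -0.78 and -0.81, and CCT6B -1.45 and -1.32 against -2.48 and -2.46.

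DNAJA1 was the 1 chaperone gene called higher in the low-fertile pair, and also the 1 gene whose probes were called in opposite directions. It encodes a cytosolic J protein that works with HSPA8. Its brightest probe, at base 319, read 3.57 and 3.54 in the high-fertile pair and 4.68 and 4.88 in the low-fertile pair, a 2.34-fold increase (log2 fold change 1.22 ± 0.15 SE, adjusted p = 0.00508). Its probes at bases 1211 and 1243 read 1.54 and 1.60 against 0.34 and 0.53, and 1.80 and 1.81 against 0.56 and 0.57. These were decreases of 2.20-fold (adjusted p = 0.00606) and 2.36-fold (adjusted p = 0.00405), on probes that overlap by 28 bases of the target, with sequences not identical there, and are not independent. Between them, the probes at bases 659 and 792 gave -0.08 ± 0.21 and -0.55 ± 0.18 (SE; adjusted p = 0.784 and 0.0754). All 5 probes were well above background on all 4 arrays, the 3 called ones had 27 G or C bases of 60, and in those 3 the pools of the groups were apart. Read by the median over its probes, DNAJA1 was called lower instead (-1.01, adjusted p = 0.0156). The 2 probes below, at chr8:78913092-78913151 and chr8:78921075-78921134 on the plus strand of cattle chromosome 8 (Btau_3.1), carried the opposite calls. G and C are in capitals.
DNAJA1 base 319: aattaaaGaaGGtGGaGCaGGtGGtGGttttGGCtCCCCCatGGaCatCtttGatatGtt
DNAJA1 base 1211: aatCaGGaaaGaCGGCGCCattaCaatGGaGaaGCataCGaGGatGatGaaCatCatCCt

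Few other J proteins could be called. In the DNAJA family, DNAJA2, DNAJA3 and DNAJA4 were not tested. DNAJA2 read -0.81 and -1.04 in the high-fertile pair and -0.55 and -1.26 in the low-fertile pair, and the mitochondrial DNAJA3 read -1.07 and -0.87 against -1.11 and -2.02.

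Of 13 DNAJB genes 4 were tested and 1, DNAJB7, was called. It read -0.42 and -0.81 in the high-fertile pair and was dim in the low-fertile pair (measured log2 fold change -1.98 ± 0.22 SE, adjusted p = 0.00411). Its high-fertile mean lay under the floor of the bound, so no fold is given. DNAJB9, a J protein of the endoplasmic reticulum that acts with HSPA5, read 3.81 and 5.53 against 5.60 and 5.85. High-fertile pool 1 lay apart from the other pools, and the log2 fold change of 1.05 ± 0.54 (SE) did not pass (adjusted p = 0.201). Its probe shares at least 25 bases with another probe of the array, which gave 0.21. The stress-inducible DNAJB1 (-2.71 and -1.32 against -1.04 and -1.32), DNAJB6 (-0.76 and -0.57 against -0.30 and -0.81), DNAJB11 and the sperm flagellar DNAJB13 (-1.12 and -0.60 against 0.15 and -0.03) were not tested.

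Of 26 DNAJC genes 12 were tested, 2 were called lower and 10 did not pass. DNAJC6 (auxilin), which recruits HSPA8 to clathrin-coated vesicles, read 0.46 and 0.51 against -0.47 and -0.75 and was 2.13-fold lower (adjusted p = 0.00825). Over the median of its 3 probes, of which 1 was tested, DNAJC6 was at -0.39 and not called (adjusted p = 0.679). DNAJC8, a splicing-associated J protein, read 0.54 and 0.55 against -0.10 and -0.15 and was 1.59-fold lower (adjusted p = 0.0217). After G and C correction its value turned to 0.18 (adjusted p = 0.349). The call was also lost when either high-fertile pool or low-fertile pool 2 was left out. A probe of the same sequence listed under another name read 0.41 and 0.54 against -0.04 and -0.03, and its log2 fold change of -0.51 had an adjusted p of 0.052. The 2 readings of this sequence fell on either side of the threshold. DNAJC5, the cysteine string protein of synaptic and secretory vesicles, read -0.39 and -0.37 against -0.003 and 0.05 (adjusted p = 0.0857), and its testis form DNAJC5G read 1.32 and 1.31 against 1.56 and 1.92 (adjusted p = 0.132). DNAJC7, which binds both HSP70 and HSP90, read 2.35 and 2.34 against 1.99 and 2.05 (-0.33 ± 0.14 SE, adjusted p = 0.137), while a probe that overlaps it by 54 bases gave 0.14 ± 0.15 (SE). DNAJC16 was not called by its brightest probe (adjusted p = 0.363), but its probe at base 4102 read 1.12 and 1.20 against -0.78 and -1.34 (adjusted p = 0.00316). DNAJC3 and the mitochondrial import J protein DNAJC19 were not tested.

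Of the 7 small heat shock proteins 6 were tested, and 1, HSPB11, was called lower. HSPB11, listed as IFT25 in the current cattle annotation and known as a subunit of the intraflagellar transport complex, read -0.08 and 0.28 in the high-fertile pair and was dim in the low-fertile pair (measured log2 fold change -2.17 ± 0.28 SE, adjusted p = 0.00547), at least 1.55-fold lower. HSPB1 (HSP27) read 1.00 and 1.36 against 0.65 and 0.84, HSPB8, a partner of BAG3, read 0.59 and 0.51 against -0.01 and 0.25, and HSPB6 read 3.55 and 3.39 against 3.09 and 3.30. In all 3 the low-fertile pools were below the high-fertile pools, yet none passed (adjusted p = 0.136, 0.106 and 0.248). The testis-enriched HSPB9 read -0.08 and -0.07 against -0.05 and -0.22 (adjusted p = 0.777).

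**Figure D2:**
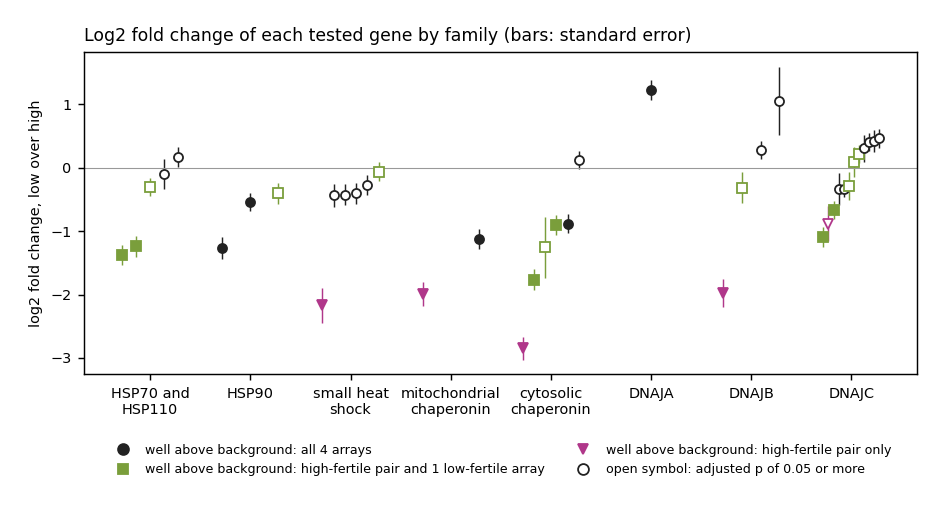
Log2 fold change (low-fertile over high-fertile, vertical axis) of the brightest probe of each tested gene with its standard error, by family. Filled symbols have an adjusted p under 0.05; circles, squares and triangles are genes well above background on all 4 arrays, on the high-fertile pair and 1 low-fertile array, and on the high-fertile pair only. The lowest points (CCT2, HSPB11, HSPD1 and DNAJB7) are triangles.

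Family medians depended on which genes could be read. Over the tested genes the median log2 fold change was -1.08 for the 6 cytosolic chaperonin genes, -0.42 for the 6 small heat shock proteins, -0.30 for the 5 HSP70 genes and -0.10 for the 12 DNAJC genes, beside 0.01 over all tested genes. For the 4 DNAJB genes it was -0.02, and turned to 0.01 with another 75th percentile. Over genes well above background on all 4 arrays the medians were -0.38 (2 genes), -0.42 (4 genes), 0.03 (2 genes), 0.36 (6 DNAJC genes) and 0.66 (2 DNAJB genes), beside 0.15 over all such genes. Without any filter they were -0.89, -0.40, -0.22, -0.13 and 0.28, beside 0.09 over all genes.

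The fold change differed along the transcript in several chaperone genes. On 13 chaperone transcripts, 2 or more tested probes started at least 200 bases apart, and in 12 of them the last probe had the lower log2 fold change, with a median measured difference of -0.76 between the last and the first. In HSPA8 and CCT6A the last probe was dim in both low-fertile pools, so the size of their difference, and for CCT6A its direction, is not settled. Without them, a choice made after seeing the data, the last probe was lower in 10 of 11 with a median of -0.65, against 57.3% of 2076 transcripts and a median of -0.12. With such dim probes kept in, the share over all 2387 transcripts was 58.1%, with a median of -0.15. The difference was -2.46 in DNAJA1, -2.28 in HSP90AA1, -1.28 in HSPA5, -1.06 in HSP90AB1 and -1.05 in TCP1. HSPA5, not called by its brightest probe, was called lower at its last probe (base 2357, -1.05 ± 0.23 SE, adjusted p = 0.0247). It was -0.65 in HSPB8, -0.38 in DNAJC11 and -0.19 in DNAJC16. In CCT4 (-0.03) and HSPA1A (-0.01), both counted among the 12, the first and last probes differed by less than the standard error of either, as did those of HSPB6 (0.04), the 1 transcript with the higher value at its last probe. These orders follow the start base that the files give in the target sequence. By genome position, an order chosen after seeing the data, 12 of the 13 transcripts had the same order, and HSPA8, whose probe at base 542 then came last, had a measured difference of -0.22 in place of -2.78. Of the 13 last probes 8 were called lower, against 22.8% over all transcripts, and of the 13 first probes 2 were, against 11.4%. The brightest probe was also the last in several of these genes, and the members were not drawn at random, so these shares are a description.

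**Figure D3:**
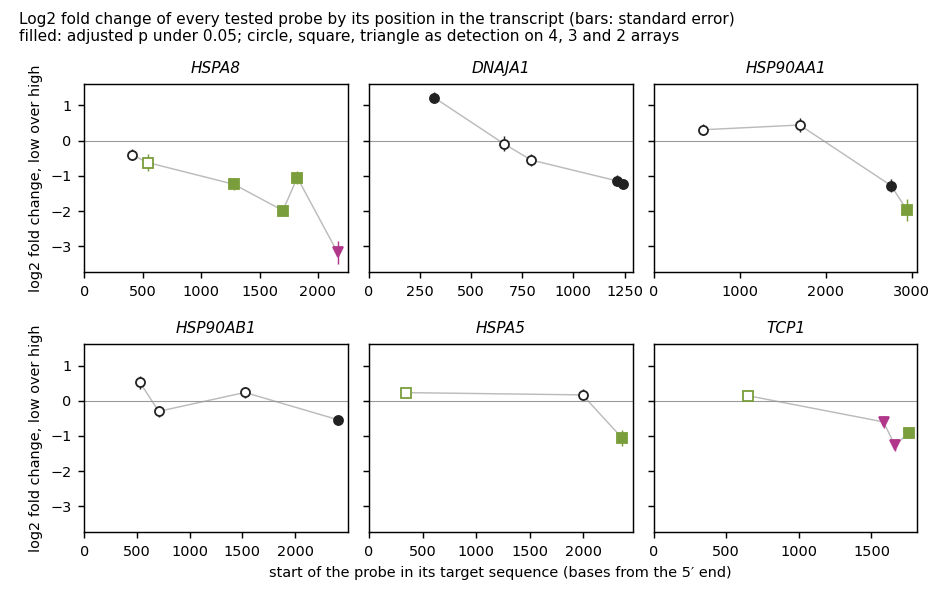
Log2 fold change (low-fertile over high-fertile, vertical axis) with its standard error for every tested probe of 6 chaperone genes, against the base of the target sequence at which the probe starts (horizontal axis). Filled symbols have an adjusted p under 0.05, and symbol shapes give the arrays on which the probe was well above background. In each gene the probe with the last start base lies below the first, from 1.22 to -1.24 in DNAJA1 and from -0.40 to -3.17 in HSPA8, the latter dim in both low-fertile pools.

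Where the filter on dim probes was made strict the pattern had fewer cases. With probes well above background on all 4 arrays only, 5 chaperone transcripts were left, and the last probe was lower in 4 of them, against 58.7% of 1017 transcripts. The base composition of the last probe often differed from that of the first. It held fewer G and C bases in 9 of the 13 transcripts, and in all 9 its fold change was lower, against 67.7% of all transcripts of that kind. In DNAJA1, DNAJC11 and TCP1 the content was equal, and in each the last probe was again lower, against 50.6% of 551 such transcripts.

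Base composition moved with the fold change over the whole array. At 45.0% G and C the median log2 fold change of all tested probes was -0.09, at 35.0% it was -0.87 and at 55.0% it was 0.23. Of the 74 tested chaperone probes, 27.0% had at most 40% of G and C against 17.2% of all tested probes, and 13.5% had over 50% against 38.4%. Of the 74, 29 were called lower and 1 higher, beside 17.6% and 9.22% of all tested probes. Of the 20 with at most 40% G and C, 13 were called lower (65.0%, against 47.5% of all such probes). Of 44 between 40% and 50% there were 15 (34.1%, against 18.7%), and of 10 with over 50% there was 1 (10%, against 2.86%). Among probes well above background on all 4 arrays the chaperone shares were nearer those of the array. In the same 3 classes they were 33.3% of 6 probes (against 32.0%), 16.7% of 24 (against 13.1%) and 0% of 6 (against 2.19%). With log2 values corrected for G and C content, 9 of the 14 lower calls were kept, and HSP90AB1, HSPE1, CCT4, TCP1 and DNAJC8 lost theirs, DNAJC8 with its sign turned (0.18, adjusted p = 0.349). The 1 higher call, DNAJA1, was kept. The part of base composition in these results was not tested further.

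**Figure D4:**
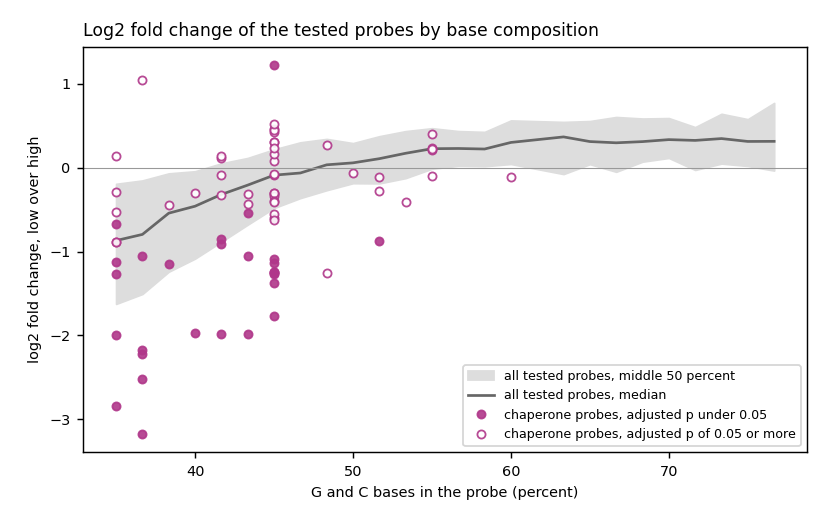
Log2 fold change (low-fertile over high-fertile, vertical axis) of the 74 tested chaperone probes against their content of G and C in percent (horizontal axis), with the median and middle 50 percent of all tested probes at each content. Filled points have an adjusted p under 0.05; 13 of the 20 points at or below 40% are filled, and 1 of 10 above 50%.

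HSPA1A has probes at bases 870 and 876 whose start bases place 54 bases in common, with sequences that are not identical there. The files locate the first at chr23:27312716-27312775 and 30 bases of the second at chr23:27311277-27311306, which do not overlap. The first read 0.23 and 0.16 against -0.60 and -0.77 and was called lower (-0.88 ± 0.15 SE, adjusted p = 0.012). The second read -0.51 and -1.05 against -0.97 and -0.81 and was not (-0.11 ± 0.22 SE, adjusted p = 0.738). The inducible HSP70 genes are near-identical copies, so a HSPA1A value may hold signal of more than 1 gene.

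Grouped by site or use, the counts were as follows, beside 16.3% of all tested genes called lower and 9.60% called higher; differences between these groups were not tested. Of 9 genes listed as cytosolic housekeeping chaperones, 6 were tested, 4 were called lower and 1 (DNAJA1) higher. That list also holds the splicing-associated DNAJC8, which was among the lower calls. Of the 4 lower calls, 3 qualified through the high-fertile pair and 1 low-fertile array, and 1 was well above background on all 4 arrays. Of 9 stress-inducible genes on the array, 6 were tested and 3 were called lower, HSP90AA1, HSPD1 and HSPE1. Of 7 mitochondrial genes, 3 were tested and 2 were called lower, again HSPD1 and HSPE1, of which HSPD1 qualified through the high-fertile pair alone. Of 8 endoplasmic reticulum genes, 4 were tested and 0 were called at an adjusted p under 0.05. Of 11 testis-enriched genes (HSPA2 and those named in the opening other than CCT8L2), 4 were tested and 1 was called lower, DNAJB7, dim in both low-fertile pools, and 4 were not well above background on any array.

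Partners of the chaperones were read in the same way. Of 32 co-chaperones and regulators on the array 12 were tested, 5 were called lower and 1 higher, with a median log2 fold change of -0.42, beside the same 16.3% and 9.60%. Of the lower calls, 1 was among the 6 genes well above background on all 4 arrays, 3 were among the 4 that qualified through the high-fertile pair and 1 low-fertile array, and 1 was the gene that qualified through the high-fertile pair alone. STIP1 (HOP), which links HSP70 to HSP90, read 1.84 and 1.74 in the high-fertile pair and 0.47 and 1.04 in the low-fertile pair (-1.04 ± 0.22 SE, adjusted p = 0.0237) and was the 1 called gene well above background on all 4 arrays. The other lower calls were ST13, BAG4, PTGES3 (p23) and UNC45A, and the higher call was SIL1, an exchange factor for HSPA5 that was not well above background in high-fertile pool 1 (-1.34). HSF1, the heat shock transcription factor, read 2.73 and 2.79 against 2.44 and 2.69 and did not pass (adjusted p = 0.393). Of 15 prefoldin subunits and chaperonin helpers 7 were tested. Prefoldin hands actin and tubulin to the cytosolic chaperonin. PFDN5 read 10.46 and 10.28 against 9.74 and 9.88 (-0.56 ± 0.15 SE, adjusted p = 0.049). After G and C correction its value was 0.30 (adjusted p = 0.242), and the call was lost when any 1 pool was left out. PFDN1 read -0.15 and 0.07 against 0.51 and 0.66 (0.63 ± 0.16 SE, adjusted p = 0.039). Of 13 chaperone relatives under other symbols 8 were tested. CRYAA, a small heat shock protein of the lens, was called higher (0.82 ± 0.15 SE, adjusted p = 0.0155) and BBS12, a chaperonin-like protein, lower (-0.77 ± 0.16 SE, adjusted p = 0.0224).

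The 40 chaperone genes that were not tested made up 50.6% of the members, against 49.0% of all genes on the array. Of these 40, 17 had a brightest probe well above background on 0 arrays, 13 on 1 and 10 on 2. CCT5 and DNAJB4 each had a probe with signal on 1 array only. CCT5 at base 2004 read 4.42 in low-fertile pool 2 and at most -3.07 elsewhere, and DNAJB4 at base 823 read 1.21 in high-fertile pool 1 and at most -2.29 elsewhere. Both spots lay on a patch of the array where neighbouring spots were also bright, so neither value was taken as a level of the transcript.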

How the data were processed

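Sperm RNA of 2 high-fertile and 2 low-fertile pools was labelled with 1 dye and hybridised to 4 bovine arrays. The authors deposited the scanner intensity of each spot from Feature Extraction 11.5.1.1, background-subtracted with a surrogate for dim spots, and a table of log2 values shifted by the 75th percentile in GeneSpring GX 12.6. Processed signals were taken to log2, outlier spots dropped and replicate spots averaged, and each array was shifted by its 75th percentile of non-control probes. A mark on a probe needed at least 0.5 of its spots. Probes that the scanner marked well above background in both pools of either group entered limma 3.58.1 (R 4.3.3) with Benjamini-Hochberg adjustment over all of them; the code was tested on simulated data. "At least" folds set the bright mean against the higher, per array, of the dim signal and the 99th percentile of unmarked probes. Against the lowest marked signal, which many unmarked probes exceed, they were 6.47 (HSPA8), 6.12 (CCT2), 4.47 (HSPB11), 3.80 (HSPD1), 3.68 (CCT6A) and 3.32 (DNAJB7), and are not lower bounds. Tables were made with Python 3.11.15 and pandas 2.3.3. Same-numbered pools shared only a number (r = 0.0055 of their deviations). Of the 187 member probes, 167 had an accession in the current RefSeq annotation. Members, lists and named genes (by role; up to 3 per family in each direction called on all 4 arrays with pools apart; opposite calls) were chosen with earlier results of these data known. HSPB11, DNAJB7, DNAJB9, DNAJC5G, DNAJC6, DNAJC8, DNAJC16, CCT8L2, HSPB6, DNAJA4, DNAJB4 and other members outside that rule, and among partners those called outside the rule, were named after their values were seen.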

Additional observations from a re-analysis of the deposited data

How the results depend on the processing

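The counts of chaperone genes called lower and higher in the low-fertile arrays were 14 and 1, and 4 and 1 among genes well above background on every array. Among the alternatives, G and C correction and the choice of the first or last tested probe were chosen after seeing the data. Spike-in scaling, which moved the median of all tested probes to -0.38, gave 22 lower, and 9 in the stricter set, while 31.1% of all tested genes were called lower. Normexp correction gave 9 lower and 4 higher in the stricter set, and 21 lower and 4 higher in all, beside 20.4% and 14.3% of all tested genes. Without the filter limma called 0 genes in either direction, with 17 lower and 4 higher unadjusted. By the methods' t-test there were 0 calls after Benjamini-Hochberg adjustment, with 16 lower and 5 higher unadjusted, beside 16.1% and 12.8% of all tested genes. A fit restricted to probes well above background on every array gave 4 lower and 3 higher of 20 chaperone genes. Over all 12552 probes in that fit, 1625 were lower and 2714 higher. G and C correction gave 9 lower, and 1 in the stricter set, beside 11.2% of all tested genes. Taking the median of all probes of a gene, tested or not, gave 11 lower and 0 higher, beside 1803 and 804 of all 16685 genes in that fit. It kept 8 of the 14 lower calls in limma. Those lost were DNAJC6 (-0.39, adjusted p = 0.679), HSPA4 (-0.52, adjusted p = 0.0803), HSP90AA1 (-0.53, adjusted p = 0.0976), TCP1 (-0.41, adjusted p = 0.124), HSP90AB1 and HSPD1. The last probe gave 16 lower and 0 higher, and the first gave 10 lower, with 2 in the stricter set. Leaving out 1 array at a time leaves 1 pool in a group, so total counts of such fits are not listed here. In each of them the 14 lower genes and the 1 higher gene kept their sign, though some lower calls were lost.

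The chaperone medians moved as follows. HSP70 genes gave -0.68 under spike-in scaling, 0.035 on the stricter set, 0.029 with a local background and -1.05 by the last probe. Small heat shock proteins gave -0.79 under spike-in scaling, -0.28 with normexp and -0.093 over all probes. The cytosolic chaperonin gave -1.05 with the other percentile, -1.15 with quantile normalization, -1.45 with spike-ins, -0.37 with normexp, -0.89 without a filter, -0.38 on the stricter set, -1.04 over all probes, -0.94 after G and C correction and -1.06 by the first probe. DNAJB gave -0.39 with spike-ins, 0.28 without a filter, 0.66 on the stricter set, 0.23 over all probes and -0.20 with a local background. DNAJC gave -0.47 with spike-ins, 0.36 on the stricter set, -0.24 over all probes, -0.20 with a local background, 0.18 after G and C correction and 0.00155 by the first probe. Leaving out 1 array gave -1.32 to -0.88 for the cytosolic chaperonin, -0.20 to 0.12 for DNAJB, -0.12 to 0.066 for DNAJC, -0.42 to -0.27 for HSP70 and -0.51 to -0.31 for small heat shock proteins.

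Of single genes, the sign turned with spike-ins in CCT7 (-0.25) and HSPA5 (-0.20), with normexp in HSPA5 (-0.020), and with a local background in HSPA1A (0.16), HSPA2 (0.28) and HSPB9 (0.23). With the median of a gene's probes it turned in DNAJA1 (-1.01), DNAJC7 (0.029), HSP90AB1 (0.11), HSPA2 (0.046), HSPA5 (-0.39), HSPB8 (0.072), HSPB9 (0.41) and HSPD1 (0.51). By the last probe it turned in DNAJA1 (-1.24), DNAJC7 (0.14) and HSPA5 (-1.05), and by the first in HSP90AA1 (0.31), HSP90AB1 (0.52), HSPB8 (0.22) and TCP1 (0.15). After G and C correction it turned in DNAJC7 (0.014), DNAJC8 (0.18), HSPB1 (0.14) and PFDN5 (0.30). HSPA1A turned without high-fertile pool 2 (0.23) and HSPB9 without low-fertile pool 2 (0.025, and -0.15 without low-fertile pool 1). The cause was not tested. Of the other values of single genes and partner counts, 478 kept direction and side of the threshold, 71 lost a call, 11 gained one and 56 moved, being counts that changed by over 1.5 times.

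With the replicate number as a block, 14 genes were lower and 1 was higher, and 3 and 1 in the stricter set, where HSP90AB1 lost its call. The numbers do not pair the pools (r = 0.0055), so the block is not a design term. Depth is set by signal over background: 37 chaperone probes were well above it in low-fertile pool 2 against 86 to 88 in the others, so calls on genes dim there use measured values below the mark.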
